A study of Mus musculus with 14 samples.

Results

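The loci of Tal1, Lyl1, Lmo2 and Ldb1 were described from the transcription factor (TF) binding sites that fell in and around them. The 4 genes were taken from 21774 protein-coding genes of the RefSeq annotation of the mouse genome (GRCm38). A peak belonged to a gene when it overlapped the RefSeq gene span, extended on each side by 80 kb for Lmo2 and by 40 kb for the other genes. By this rule 159 of 158488 peaks belonged to the loci: 57 to Lyl1, 41 to Tal1, 37 to Lmo2 and 24 to Ldb1. Distances are given from the transcription start site (TSS) at the 5′ end of the gene span, with negative values upstream, and are distances of peak centres unless a region is named.

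The peaks came from sequencing of immunoprecipitated chromatin (ChIP-seq) of cells differentiated from mouse embryonic stem (ES) cells of strain 129. The ES line carried a green fluorescent protein (GFP) reporter in the Brachyury gene, a marker of mesoderm, in every population that was studied. The 5 sorted populations were mesoderm (MES, Bry.GFP+ and FLK1-), hemangioblasts (HB, Bry.GFP+ and FLK1+), hemogenic endothelium (HE, Bry.GFP+, Tie2+, Ckit+ and CD41-), hematopoietic progenitors (HP, CD41+) and macrophages (MAC, CD11b+). Each of the 14 lists held the peaks of 1 antibody in 1 population: C/EBPβ in all 5 populations, ELK4 in MES, GATA2 in HB and HP, GATA1 and GFI1B in HP, RUNX1 and PU.1 (encoded by Spi1) in HP and MAC. Chromatin of HE was precipitated with added carrier mouse mRNA and histone. Every group was 1 list, so replicate error could not be estimated, no test was made, and all statements describe these lists. The lists held from 72 peaks (MAC RUNX1) to 82866 peaks (MAC PU.1), each peak was 400 bp wide, and read depth and peak height were not used here. The authors set the threshold of each list by eye, so presence or absence of a peak in 2 lists does not compare amounts of binding. No expression was measured in the files used here, so the populations could not be checked against their marker genes.

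TAL1 (also called SCL) and LYL1 are closely related basic helix-loop-helix (bHLH) proteins, which bind E-box sequences as dimers with E-proteins such as E2A. LMO2 is a LIM-only protein without a DNA-binding domain that bridges the bHLH dimer to GATA factors, and LDB1 binds LMO2 and joins complexes to each other through its own dimerization. TAL1 and LMO2 are required for the formation of all blood lineages, LYL1 can in part stand in for TAL1 in adult stem cells, and LDB1 is expressed in many tissues. TAL1 and LMO2 ChIP lists were not analysed here, so the values below are of other factors on the genes that encode the complex.

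The sequences on which the description turns are printed here from RefSeq GRCm38, 5′ to 3′ on the plus strand. They were chosen because several factors, or a factor of a progenitor list, had their centres there. The Ldb1 stretch is an exception, since it lies between the HP RUNX1 and MAC PU.1 centres of its region and holds neither. The choice among regions of Lmo2 and Ldb1, and of the nearer Tal1 downstream, the Lyl1 intron and the Lyl1 downstream stretches, was made after the positions had been seen. Capitals mark matches, on either strand, to the consensus of a factor that had a peak in the region: TGTGGTT for RUNX, TTGCNNAA for C/EBP, GAGGAAGT for PU.1 and AGATAA for the GATA factors. They also mark an E-box, CANNTG, with GATAA 7 to 9 bases on, the composite arrangement known for TAL1 and GATA complexes. For ELK4 the letters CCGGAAGT were searched, for GFI1B AATCNNNGC, and for single E-boxes CAGNTG. A composite can overlap a single E-box. Stretches in untranslated exons were limited to 30 bases.
Tal1 promoter, GATA part (chr4:115056546-115056704, plus strand): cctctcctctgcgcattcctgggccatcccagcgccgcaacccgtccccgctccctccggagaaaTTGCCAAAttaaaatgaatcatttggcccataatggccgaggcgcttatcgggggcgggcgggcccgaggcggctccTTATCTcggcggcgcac
Tal1 promoter, C/EBP part (chr4:115057000-115057029, plus strand): cccttttccccTTGCGCAAtagacagaaaa
Tal1 downstream, near (chr4:115075576-115075775, plus strand): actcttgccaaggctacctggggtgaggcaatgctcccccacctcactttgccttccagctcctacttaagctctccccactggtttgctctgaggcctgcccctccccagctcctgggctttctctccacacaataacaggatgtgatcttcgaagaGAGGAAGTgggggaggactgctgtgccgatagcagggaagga
Tal1 downstream, far (chr4:115095776-115095925, plus strand): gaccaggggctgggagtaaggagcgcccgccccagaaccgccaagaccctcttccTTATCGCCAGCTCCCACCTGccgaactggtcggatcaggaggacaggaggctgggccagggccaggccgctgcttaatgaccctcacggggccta
Lyl1 promoter, GATA part (chr8:84701660-84701689, plus strand): gcagccagacccTTATCTgcacaggcccag
Lyl1 intron (chr8:84703533-84703732, plus strand): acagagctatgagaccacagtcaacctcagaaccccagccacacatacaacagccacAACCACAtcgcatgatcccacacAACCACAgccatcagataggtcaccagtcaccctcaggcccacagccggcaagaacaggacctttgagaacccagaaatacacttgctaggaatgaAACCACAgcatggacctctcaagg
Lyl1 downstream (chr8:84730803-84731002, plus strand): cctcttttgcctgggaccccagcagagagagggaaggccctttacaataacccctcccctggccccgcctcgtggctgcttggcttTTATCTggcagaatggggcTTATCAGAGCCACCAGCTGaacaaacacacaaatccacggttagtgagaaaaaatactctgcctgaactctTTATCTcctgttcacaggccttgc
Lmo2 upstream, far (chr2:103893803-103894022, plus strand): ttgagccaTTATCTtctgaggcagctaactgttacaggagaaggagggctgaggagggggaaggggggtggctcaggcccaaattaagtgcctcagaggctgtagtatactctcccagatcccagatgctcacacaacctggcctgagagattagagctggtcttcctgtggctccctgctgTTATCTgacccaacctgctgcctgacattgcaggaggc
Lmo2 upstream, near (chr2:103946973-103947122, plus strand): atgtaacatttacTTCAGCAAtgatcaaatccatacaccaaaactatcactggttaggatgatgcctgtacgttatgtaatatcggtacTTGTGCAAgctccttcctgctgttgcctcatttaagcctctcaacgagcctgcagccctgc
Ldb1 downstream (chr19:45998046-45998245, plus strand): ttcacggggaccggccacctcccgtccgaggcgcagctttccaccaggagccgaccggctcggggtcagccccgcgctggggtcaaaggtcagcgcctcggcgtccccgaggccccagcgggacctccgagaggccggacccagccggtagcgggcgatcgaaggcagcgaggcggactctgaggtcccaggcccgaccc

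The same letters were also counted in stretches that were not chosen for a peak. Among 51420 windows of 400 bp, placed every 10 kb on the 4 chromosomes of the loci, the C/EBP letters were in 17.7%, PU.1 in 2.43%, RUNX in 9.20%, GATA in 24.1%, ELK4 in 0.257%, GFI1B in 14.1%, the single E-box in 60.5% and the composite in 1.15%. A match is therefore a description of the sequence and does not by itself show a site in use.

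The first question was which factors occupied the 4 loci, and at which stage. Lyl1 had peaks of 13 lists and Tal1 of 11 lists, whereas Lmo2 had peaks of 5 lists and Ldb1 of 3. With 40 kb of flank, Lmo2 had 3 lists, without HP GATA1 and HP PU.1. In HP, 6 of 6 lists had a peak at Lyl1, 5 of 6 at Tal1, 3 of 6 at Lmo2 and 1 of 6 at Ldb1. No list of MES, HB or HE had a peak in the window of Lmo2 or of Ldb1. The 2 longest lists, MAC C/EBPβ with 36 peaks and MAC PU.1 with 77, gave 113 of the 159 peaks, or 71.1%, and they made up 87.3% of all peaks of the 14 lists. Their share was 58.5% at Tal1, 59.6% at Lyl1, 86.5% at Lmo2 and 95.8% at Ldb1, so that of Lmo2 was near the background. The other 12 lists gave 46 peaks, of which 23 were at Lyl1, 17 at Tal1, 5 at Lmo2 and 1 at Ldb1. The gene bodies and windows differ in length (83.3 kb for Lyl1, 95.3 kb for Tal1, 96.6 kb for Ldb1 and 184.0 kb for Lmo2), and Lyl1 had the most peaks in the shortest window. Next to the edges of the windows, the outermost downstream peak of Tal1 was at +39.9 kb inside and +435 kb outside. Upstream of Tal1 the nearest peak outside the window was at -55.7 kb, and the outermost one inside is not reported here. For Lyl1 the outermost upstream and downstream peaks were -39.7 and +43.3 kb inside and -41.4 and +62.8 kb outside. For Lmo2 they were -76.6 and +71.4 kb inside and -82.0 and +142 kb outside, and for Ldb1 -27.4 and +51.9 kb inside and -41.0 and +63.6 kb outside.

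**Figure D1:**
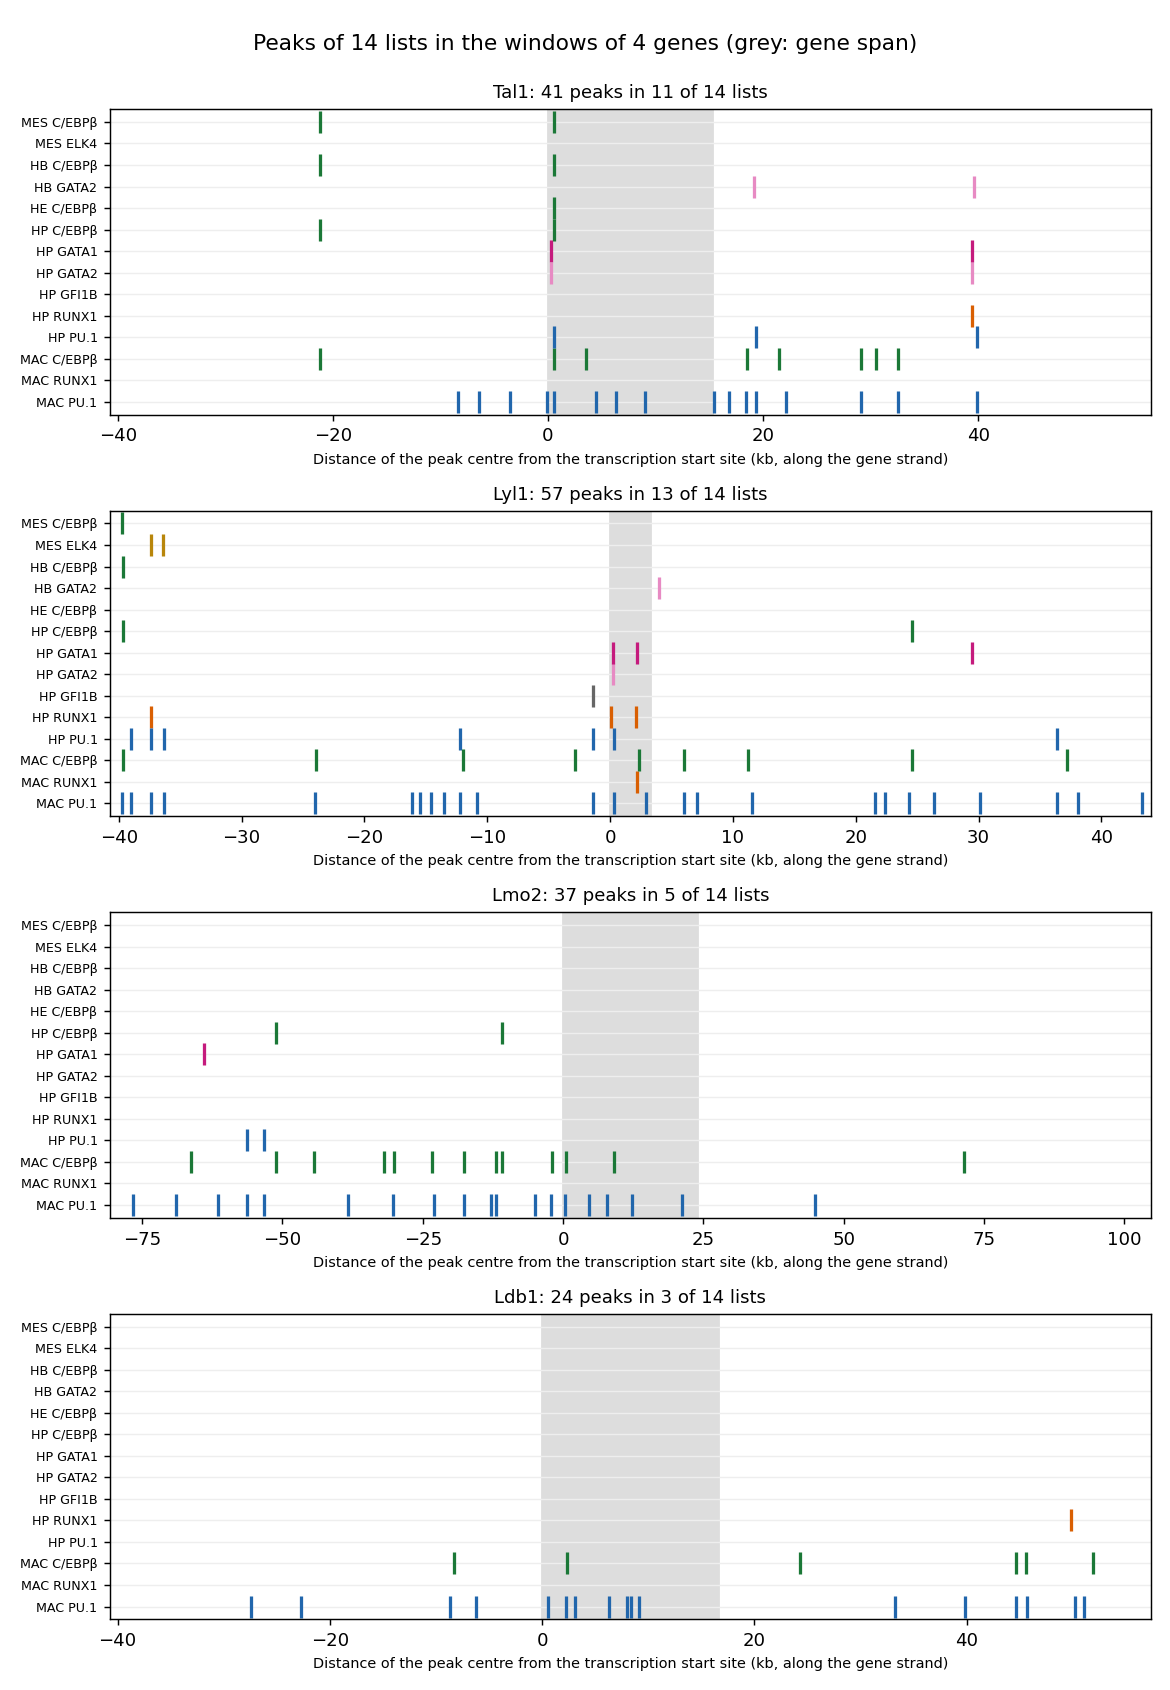
Each mark is the centre of 1 peak, by its distance from the TSS along the gene strand in kb (horizontal axis) and its list (vertical axis, from MES to MAC), with the gene span in grey. Tal1 and Lyl1 carry marks in 11 and 13 of the 14 lists, while 32 of 37 marks of Lmo2 and 23 of 24 of Ldb1 are in the MAC C/EBPβ and MAC PU.1 lists, which hold 87.3% of all peaks.

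These presences were read against all 21774 coding genes with a window of the same flank. At 40 kb, the share of coding genes with a peak was 9.27% for MES C/EBPβ, 5.98% for HB C/EBPβ and 1.03% for HE C/EBPβ, and each of these lists had a peak at Tal1. The MES and HB lists also had one at Lyl1. The share was 6.79% for MES ELK4 and 16.8% for HP GFI1B, and of the 3 genes with this flank only Lyl1 had peaks of these lists. For HB GATA2 it was 0.501%, for HP GATA1 2.72% and for HP GATA2 4.96%, and Tal1 and Lyl1 each had peaks of all these 3 lists. The share was 20.7% for HP C/EBPβ and 49.0% for HP PU.1, which had peaks at Tal1 and Lyl1. It was 11.0% for HP RUNX1, which had peaks at Tal1, Lyl1 and Ldb1. MAC RUNX1, with a share of 0.707%, had a peak at Lyl1. In the study's check of target sequences by PCR, no enrichment was reported for MES C/EBPβ, HB C/EBPβ, HB GATA2 or MAC RUNX1. These samples were sequenced regardless, so peaks of these 4 lists rest on chromatin without that check. The MAC C/EBPβ and MAC PU.1 lists reached 79.6% and 82.8% of coding genes, so their peaks at these 3 genes were near the background and are no result about them.

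At the 80 kb flank used for Lmo2, the shares of coding genes with a peak were 14.4% for MES C/EBPβ, 10.1% for MES ELK4, 9.47% for HB C/EBPβ, 0.781% for HB GATA2 and 1.73% for HE C/EBPβ, none of which had a peak at Lmo2. HP GATA2 (8.00%), HP GFI1B (25.3%), HP RUNX1 (16.6%) and MAC RUNX1 (1.18%) had none either. Lmo2 had peaks of HP GATA1, a list that reached 4.36% of coding genes, of HP C/EBPβ (30.5%), of HP PU.1 (62.1%), of MAC C/EBPβ (84.3%) and of MAC PU.1 (86.5%). Of the 5 lists at Lmo2, HP GATA1 reached the smallest share of coding genes.

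The median coding gene had peaks of 3 lists with either flank. As many lists as at Lyl1, or more, were found at 5 genes (0.0230%, Lyl1 included), and as many as at Tal1 at 17 genes (0.0781%, Tal1 included). These are not separate loci in each case, since windows overlap: Nacc1 and Trmt1, which share the Lyl1 window, are among the 5, and Pdzk1ip1 and Stil, the neighbours of Tal1, are among the 17. The other 2 of the 5, Rpp21 and Trim39, lie near a region on chromosome 17 that had a peak of all 14 lists. Gfi1 and Runx1, which encode TFs of early blood cells, were also among the 17. So were Evi5, which lies close to Gfi1, and Ier2 and Nfix, which overlap the Lyl1 window. The rest were Csad, Itgb7, Rarg and Zfp740, which lie close together on chromosome 15. Any 5 lists or more, as at Lmo2, were found at 6548 genes (30.1%, Lmo2 included), and any 3 or more, as at Ldb1, at 13149 genes (60.4%, Ldb1 included). By number of peaks, as many or more were found for 0.693% of genes at Lyl1, 2.92% at Tal1, 17.6% at Ldb1 and 20.6% at Lmo2.

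**Figure D2:**
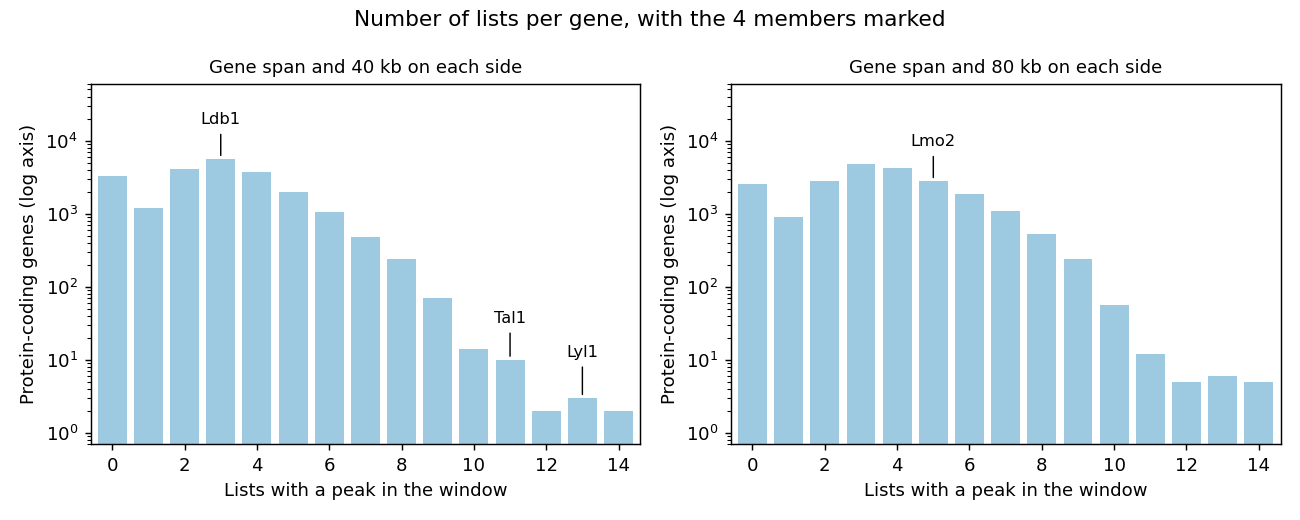
Protein-coding genes (vertical log axis) by the number of the 14 lists with a peak in the gene span and 40 kb (left) or 80 kb (right) on each side. Tal1 (11 lists) and Lyl1 (13 lists) lie in the thin upper tail, whereas Ldb1 (3 lists) lies at the median and Lmo2 (5 lists) in the body of its panel.

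Overlapping peaks were then merged into regions, by 1 bp of overlap, to ask whether factors met at the same places. The 159 peaks formed 95 regions, of which 60 had 1 list, 35 had 2 or more and 12 had 3 or more. The 12 regions were at Lyl1 (8) and Tal1 (4). Of the 95 regions, 73 were held by the 2 longest lists alone and 22 had a peak of another list: 12 at Lyl1, 4 at Tal1, 5 at Lmo2 and 1 at Ldb1. Over the genome, the 14 lists formed 117293 regions, 28.0% of which had 2 or more lists and 5.44% 3 or more, while 85.3% were held by the 2 longest lists alone. That share was 60.0% of the regions at Lyl1, 78.9% at Tal1, 81.5% at Lmo2 and 94.7% at Ldb1.

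Tal1 (gene ID 21349, chr4:115056426-115071755, plus strand) was bound most broadly at its own promoter. A region at chr4:115056110-115057226, 0.24 kb after the TSS, held 10 peaks of 9 lists. Only 5 of the 117293 regions of the genome had 9 or more lists. The 9 lists were joined in part by short overlaps, of 6 to 120 bp between its parts: merged only at 200 bp of overlap, a choice made after the data were seen, the region split into parts of 7, 2 and 1 lists, and 20 regions of the genome had 7 or more. The peaks fell into parts. The C/EBPβ centres of MES, HB and MAC all lay at +588 bp, that of HP at +599 bp and that of HE at +600 bp, so the 5 stages had their centres within 12 bp. The HP PU.1 centre at +592 bp and a MAC PU.1 centre at +557 bp lay beside them. The palindrome TTGCGCAA had its centre at +588 bp, and it lies at the start of an untranslated first exon, 4 bases after an annotated start at +581 bp. HP GATA1 (+247 bp) and HP GATA2 (+277 bp) centred further upstream in the same region, on either side of an AGATAA match at +264 bp in an intron between alternative first exons. Their peaks were 311 to 353 bp from the C/EBPβ centres, and a further MAC PU.1 peak lay at -117 bp. The PU.1 letters were absent from this region, although 3 PU.1 peaks were there. C/EBPβ, the only factor with a list in each of the 5 populations, had a peak here in all of them. This was not particular to Tal1, since regions nearest to Ndufs7, Elf2, Pcgf2 and other genes also had C/EBPβ peaks of all 5. The share of such regions in the genome was not counted. Of the 132 HE C/EBPβ peaks, 83.3% overlapped an HP and 47.0% a MAC C/EBPβ peak. The HB GATA2 list had none here, and GATA1 was assayed in HP alone.

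Downstream of Tal1, at +19.25 kb (chr4:115075410-115075939), GATA2 in HB and PU.1 in HP and MAC shared an intergenic region. The HP and MAC PU.1 centres, at +19313 and +19307 bp, were 2 and 4 bp from a GAGGAAGT match at +19311 bp. The HB GATA2 centre lay at +19183 bp, 130 bp from that of HP PU.1, and no GATA letters were in the region. HP GATA1 and HP GATA2 had no peak there. The TSS of Pdzk1ip1 was nearer to this region (13034 bp) than that of Tal1. The study lists a +19 enhancer among the known regulatory regions of the Tal1 locus, and this region lies at about that distance.

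At +39.66 kb (chr4:115095660-115096521), beyond Pdzk1ip1, which encodes a small membrane protein, an intergenic region held 6 lists. HP RUNX1 (+39433 bp), HP GATA2 (+39435 bp) and HP GATA1 (+39436 bp) had their centres within 3 bp. HB GATA2 followed at +39612 bp, and HP PU.1 and MAC PU.1 at +39883 and +39895 bp. The PU.1 peaks did not themselves overlap those of HP GATA1, GATA2 and RUNX1, and were joined to them through the HB GATA2 peak. None of the 6 peaks held the consensus of its own factor. The composite of an E-box and GATAA lay at +39414 bp, 19 to 22 bp from the centres of the 3 HP peaks. The region lay nearer to the TSS of Pdzk1ip1 than to that of Tal1. The study names a +40 enhancer as a known regulatory region of the Tal1 locus, and this region lies at about that distance. The peak positions used here do not by themselves assign it to a gene.

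Of the 19 regions of Tal1, 15 were in the 2 longest lists alone, 3 of them upstream, 4 in the gene body and 8 downstream. Peaks of HB were found at 4 Tal1 regions, 2 with C/EBPβ and 2 with GATA2, and the C/EBPβ and GATA2 regions of HB did not coincide.

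Lyl1 (gene ID 17095, chr8:84701423-84704716, plus strand) is a short gene of 3294 bp in a dense stretch, and its window also holds Ier2, an immediate early gene, Nacc1, which encodes a transcriptional regulator, Trmt1, a tRNA methyltransferase, and part of Nfix, a nuclear factor I gene. Its promoter region, at +0.19 kb (chr8:84701317-84701918), had peaks of RUNX1, GATA2, GATA1 and PU.1 in HP and of PU.1 in MAC. The RUNX1 centre lay at +93 bp, GATA2 at +241 bp, GATA1 at +248 bp, HP PU.1 at +281 bp and MAC PU.1 at +295 bp. An AGATAA match at +251 bp, in an untranslated exon, was 3 bp from the GATA1 and 10 bp from the GATA2 centre. C/EBPβ had no peak there in any of the 5 populations, in contrast to the promoter of Tal1.

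Just upstream, at -1.40 kb (chr8:84699806-84700246), HP GFI1B, a zinc finger repressor of early blood cells, centred at -1377 bp, with HP PU.1 at -1394 bp and MAC PU.1 at -1418 bp. This was the only GFI1B peak of the 4 loci. Neither the GFI1B nor the PU.1 letters were in that region, and the GFI1B peak held 5 single E-boxes.

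Inside the gene, at +2.25 kb (chr8:84703360-84703987, intron), HP RUNX1 (+2136 bp), HP GATA1 (+2180 bp) and MAC RUNX1 (+2187 bp) met, with MAC C/EBPβ at +2364 bp. It was the only region of the 4 loci with RUNX1 in both HP and MAC, and it held 1 of the 72 peaks of the MAC RUNX1 list. Over the genome, 36 of the 977 HP RUNX1 peaks (3.68%) overlapped a MAC RUNX1 peak, and 36 of the 72 MAC RUNX1 peaks (50.0%) overlapped an HP RUNX1 peak. TGTGGTT matches were centred at +2170, +2193 and +2289 bp, so 3 stood in this intron, whereas RUNX letters occurred in 7 of the 95 regions. No GATA letters were in the region.

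Further from the gene, HP GATA1 alone had a peak at +29480 bp in the window of Lyl1, described here, as is the next, after its position had been seen. Its sequence held 2 AGATAA matches (+29468 and +29558 bp) and the composite at +29494 bp. HB GATA2 had a peak at +4001 bp, just past the 3′ end of Lyl1 and on Nfix, with no match to any of the letters searched.

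Upstream regions of the Lyl1 window were mostly nearer to other genes. At -39.70 kb, in an untranslated exon of Ier2, C/EBPβ had peaks in MES, HB, HP and MAC beside a MAC PU.1 peak, with centres spread over 87 bp. At -37.37 kb, MES ELK4 (-37346 bp), HP RUNX1, HP PU.1 (both -37369 bp) and MAC PU.1 (-37389 bp) shared an intergenic region, where CCGGAAGT lay 6 bp from the ELK4 centre. At -36.35 kb ELK4 was again with HP and MAC PU.1, without those letters. ELK4 belongs to the ETS family, as PU.1 does, and both of its peaks in the loci were at these regions near Ier2. At -12.11 kb, on Trmt1, HP PU.1 shared a region with MAC C/EBPβ and MAC PU.1. Downstream, at +24.48 kb in an intron of Nfix, the centres of HP and MAC C/EBPβ lay 2 bp apart, at +24612 and +24610 bp.

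**Figure D3:**
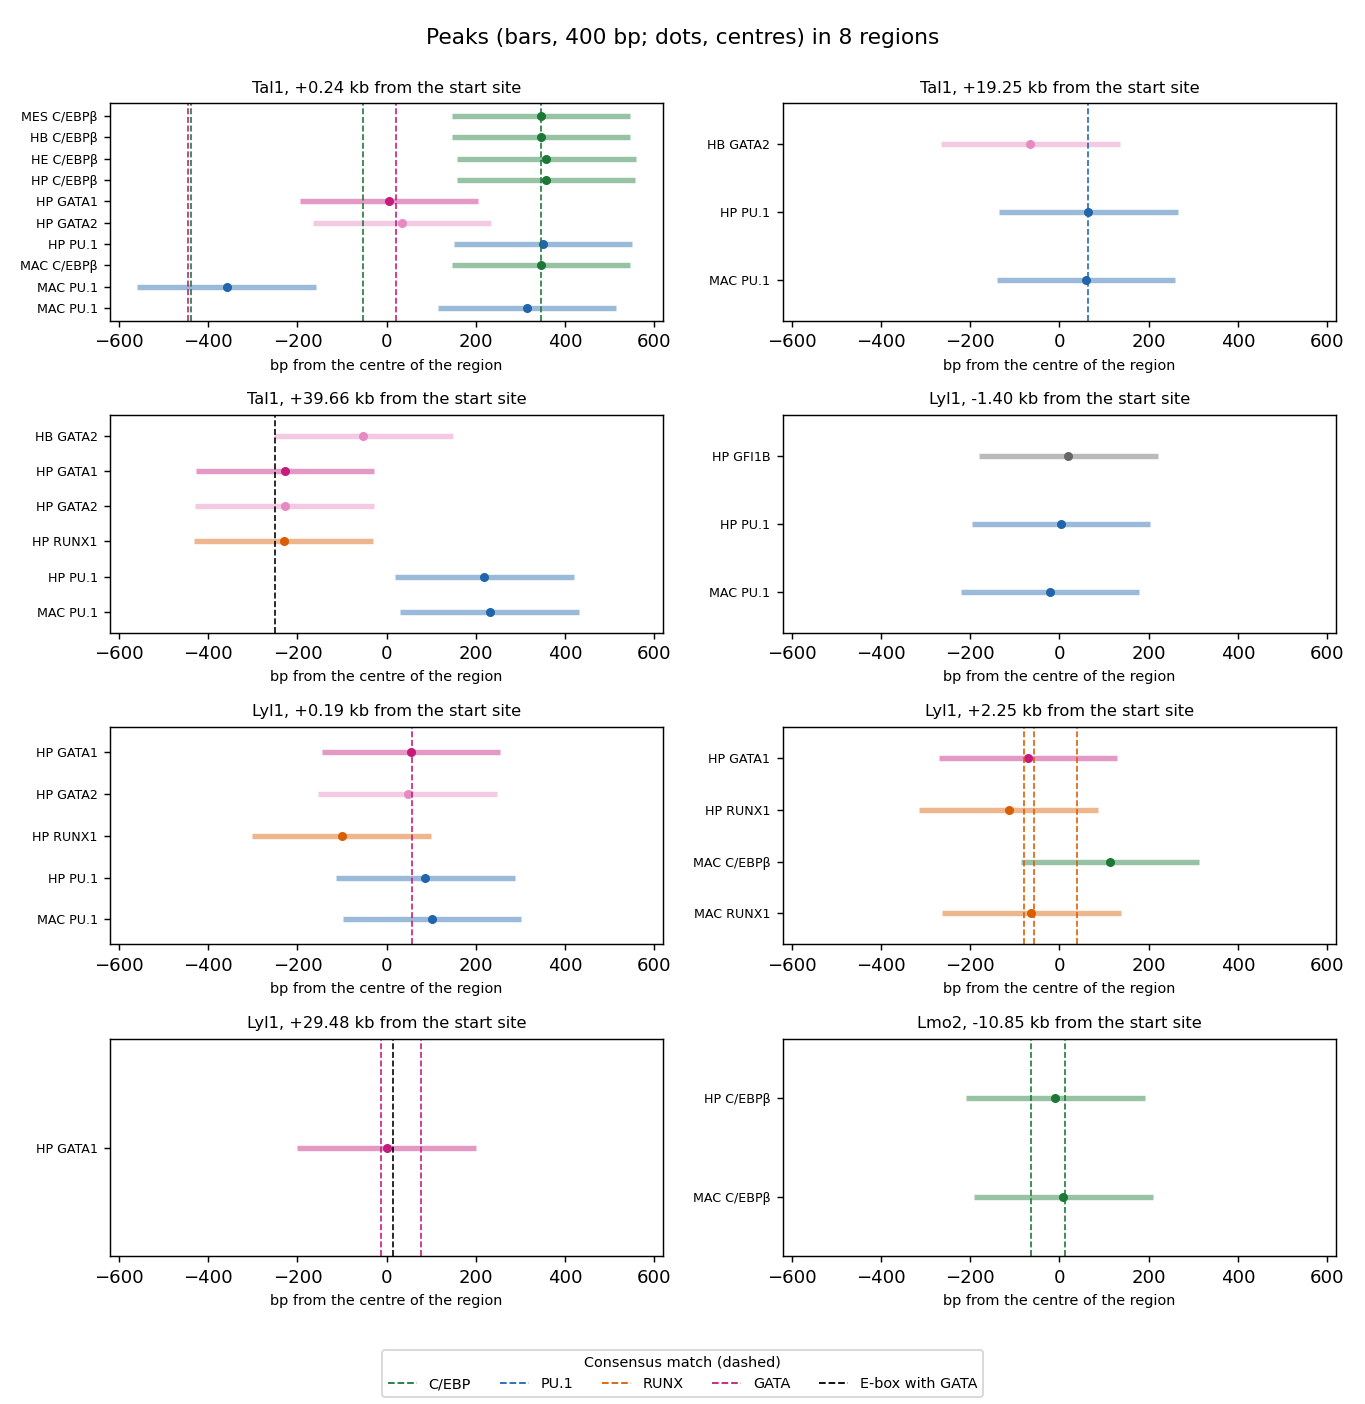
Bars are 400 bp peaks and dots their centres, by distance in bp from the centre of the merged region (horizontal axis) and by list (vertical axis), and dashed lines are matches to 5 of the consensus sequences. The C/EBPβ peaks at +0.24 kb of Tal1 stack on 1 match, and the HP GATA1, GATA2 and RUNX1 peaks at +39.66 kb stack beside the composite while the PU.1 peaks lie apart.

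The HP peaks at these 2 genes could be set beside the genome as a whole. In the genome, 15 merged regions held peaks of GATA1, GATA2, RUNX1 and PU.1 of HP, and in 13 of them a peak of each factor covered a common base. The Lyl1 promoter was one of the 13, with 212 bp common to the 4 peaks. The +39.66 kb region of Tal1 was among the 15 but not the 13, since its HP PU.1 peak lay apart from the others. Of the 15 regions, 4 had peaks of 10 lists or more. Over the 4 loci, 8 regions had a GATA peak, 5 had HP RUNX1, and 3 of those 5 also had GATA1 or GATA2 of HP. In the genome, 11.6% of HP RUNX1 peaks overlapped a peak of HP GATA1 or GATA2. The 12 GATA peaks of the loci included 6 with AGATAA, 5 with a single E-box and 3 with the composite, which was in 9.60% of all HP GATA1 and 6.04% of all HP GATA2 peaks. The single E-box was in 65.2% of all HP GATA1, 69.4% of all HP GATA2 and 64.9% of all HB GATA2 peaks, so it was not more frequent at the loci. The 3 composite-bearing peaks came from 2 sequences, the far Tal1 and the Lyl1 downstream stretches, so they are not 3 independent cases. None of the 3 HB GATA2 peaks held AGATAA, and in the whole HB GATA2 list 15.5% of peaks did, beside 24.1% of the evenly placed windows.

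Lmo2 (gene ID 16909, chr2:103957903-103981878, plus strand) had 27 regions, of which 22 were in the MAC C/EBPβ and PU.1 lists alone. The 5 others were upstream of the gene, and each had a peak of 1 list of HP. HP GATA1 had a peak with its centre at -63961 bp (chr2:103893743-103894142), in an intron of the long noncoding RNA gene Gm34948, with no other list. It held AGATAA matches at -64090 and -63916 bp and a single E-box at -63976 bp. Measured from a later group of annotated Lmo2 starts, which begins 11654 bp into the span, the same peak lay at -75.61 kb. HP and MAC PU.1 shared regions at -56.28 kb and -53.32 kb, both in Lincred1, another long noncoding RNA gene, with centres 19 and 9 bp apart. HP and MAC C/EBPβ shared regions at -51.15 kb, with centres 92 bp apart, and at -10.85 kb, with centres 18 bp apart. At -10.85 kb the centres lay at -10860 (HP) and -10842 bp (MAC), and a C/EBP match was at -10838 bp. No list other than those of MAC had a peak within 2 kb of the first Lmo2 start. There the MAC C/EBPβ and PU.1 centres lay at +476 and +433 bp, in an intron. Of the 27 regions, 19 were upstream, 6 in the gene body and 2 downstream. The 2 downstream regions were nearer to the starts of Fbxo3, an F-box gene, and 4931422A03Rik than to Lmo2, and the 25 others were nearest to Lmo2 among coding genes.

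Ldb1 (gene ID 16825, chr19:46031525-46048145, minus strand) had 19 regions, of which 18 were in the MAC lists alone. Its body held 7 of them, and the peak nearest to the TSS, of MAC PU.1, was at +530 bp. The only other list was HP RUNX1, whose peak lay at +49861 bp, past the 3′ end of Ldb1, in a region (chr19:45997751-45998484) shared with MAC PU.1 at +50195 bp. It is at the 5′ end of Armh3, whose TSS was the nearest, and neither RUNX nor PU.1 letters stood in it. Within the flank, 7 of the 19 regions had Ldb1 as the nearest coding gene start, and 5 had Hps6, a gene of lysosome-related organelles. The others were nearest to Armh3 (3), Nolc1 (2) and Pprc1 (2).

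HP peaks of PU.1 and of C/EBPβ were compared with the MAC peaks of the same factor. All 12 HP PU.1 peaks shared a region with a MAC PU.1 peak, and the nearest MAC centre was 6 to 35 bp away, with a median of 18 bp. The 6 HP C/EBPβ peaks likewise shared a region with MAC C/EBPβ, at 2 to 92 bp, with a median of 19 bp. In the genome, 97.0% of HP PU.1 and 91.4% of HP C/EBPβ peaks overlapped a MAC peak of the same factor, so the loci were near the background in this respect. Among the regions reported here, MES and HB C/EBPβ peaks shared the Tal1 promoter and the Ier2 end of the Lyl1 window. In the genome, 66.4% of MES and 68.8% of HB C/EBPβ peaks overlapped a MAC C/EBPβ peak.

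The consensus of the precipitated factor was in 53 of the 159 peaks (33.3%, exact 95% binomial interval 26.1 to 41.2%, which covers counting only). By gene, it was in 46.3% of the peaks of Tal1, 40.5% of Lmo2, 28.1% of Lyl1 and 12.5% of Ldb1, but peaks that share a region share its sequence and are not independent. The genes also differ in their mix of lists, and the share differs between whole lists, so the genes are not compared by these values. For C/EBPβ, 6 of 6 HP peaks held TTGCNNAA, against 64.0% of all HP C/EBPβ peaks, as did 3 of 3 MES peaks (61.3% of the list) and 3 of 3 HB peaks (59.2%). In MAC, 14 of 36 C/EBPβ peaks (38.9%) did, against 41.9% of the list. For PU.1 the letters were in 2 of 12 HP peaks (16.7%, interval 2.09 to 48.4%), against 42.1% of the list, and in 15 of 77 MAC peaks (19.5%), against 24.4%. For GATA1 they were in 4 of 6 peaks, against 64.0% of all HP GATA1 peaks. RUNX letters were in 1 of 5 HP RUNX1 peaks, against 26.2%. For each of the 14 lists, the interval at these loci contained the share of the whole list. Intervals of few peaks could hardly do otherwise, as for the 1 HE C/EBPβ peak (2.50 to 100%) and the 1 HP GFI1B peak (0 to 97.5%). It is therefore not a result that the loci match their lists.

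**Figure D4:**
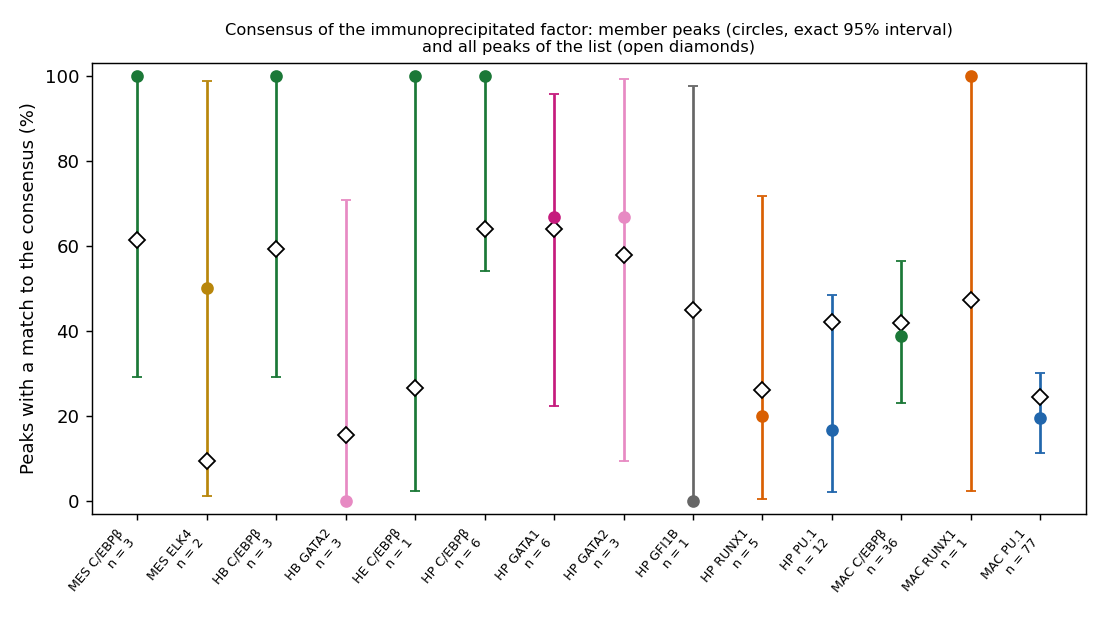
Share of member peaks with the consensus of the precipitated factor (circles, with exact 95% binomial intervals) and of all peaks of the same list (open diamonds), in percent, by list and number of member peaks. The intervals are wide, from 2.09 to 48.4% for the 12 HP PU.1 peaks. All contain the diamond of their list, which intervals of few peaks could hardly miss.

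Genes that encode further parts of the complex were examined with a 40 kb flank. The 11 partner genes had peaks of a median of 4 lists (range 2 to 8), beside a median of 3 of all coding genes. Of the 11, 10 had 3 lists or more, as had 60.4% of coding genes. Cbfa2t3, which encodes the corepressor ETO2, had 53 peaks in 8 lists, with 3 peaks of HP GATA1, 4 of HP GATA2, 5 of HP GFI1B, 2 of HP RUNX1 and 4 of HP PU.1. It was the only partner gene with a GATA1 peak. Its window is not a member and was described after its counts had been seen. Ssbp4, one of the single-stranded DNA-binding proteins that stabilise LDB1, had peaks of 6 lists, and Ssbp2 and Ssbp3 of 4 each. Among the genes of the E-proteins, Tcf12 had peaks of 5 lists, and Tcf3 and Tcf4 of 4 each. Tcf3 had the only other GATA2 peak of HP among the partners. Gata1 and Gata2 each had peaks of 3 lists, MAC C/EBPβ, MAC PU.1 and HP GFI1B, and no GATA peak within 40 kb. Of the other ETO genes, Cbfa2t2 had 4 lists and Runx1t1 only the 2 longest ones. GFI1B had peaks at 5 of the 11 partners and HP PU.1 at 7, beside 16.8% and 49.0% of coding genes. The spans of these genes differ widely, from 10903 bp for Ssbp4 to 344539 bp for Tcf4, and the part of length in these counts was not tested.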

How the data were processed

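Per the labels and the study's methods, the authors trimmed reads with CutAdapt, aligned them to mm10 (GRCm38) with Bowtie, kept unique reads, removed duplicates with Picard, called peaks with MACS against the input of the stage at a threshold chosen by eye for each list, refined the data with polyPeak and standardised peaks to 400 bp around the summit. The submitters' processing notes also name bedtools, and versions are not given in the sources used here. Technical runs were merged for some lists. The deposited files hold peak positions in bp and no counts, scores or input values, so read depth was not used here.

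From these, peaks were assigned to gene windows, merged at 1 bp of overlap, annotated with RefSeq GRCm38 and searched for consensus letters on both strands, in Python 3.11.15 with SciPy 1.17.1 (intervals at 95%, exact Clopper-Pearson) and matplotlib 3.10.9. Merging, window and letter counts were tested on simulated peaks. A gene counted once for each list with a peak in its window, and these counts are the background for all 21774 coding genes. No peak ended beyond its chromosome. With 1 list for each factor and stage, no test could be made.

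The members and lists of genes were chosen with earlier results of these data known. Named were the 4 members, the genes at regions with 3 or more lists, and the partner and paralogue genes. Other genes (nearest starts, genes with as many lists) were named after their values had been seen. Alternatives were other flanks, overlaps, assignment by peak centre or nearest TSS, leaving out the 2 longest lists, other promoter distances and starts, and the central 200 bp of a peak. One region of Tal1 that the counts include is not reported here.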

Additional observations from a re-analysis of the deposited data

How the results depend on the processing

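Of 72 alternative values, 47 stayed within 1.5 times the reported one (for the share of peaks with a consensus, within its interval) and 25 did not. With 20 kb (Lmo2 40 kb) of flank, Lyl1 had 30 peaks in 17 regions, Lmo2 24 peaks in 17 regions and 3 lists, and Ldb1 13 peaks in 11 regions. With 80 kb (Lmo2 160 kb), Lyl1 had 46 and Lmo2 41 regions. Counting only peaks whose nearest coding TSS was that of the gene, Tal1 had 22 peaks in 10 regions, Lyl1 33 in 19 and Ldb1 8 in 7. Without the 2 longest lists, Tal1 had 17 peaks in 4 regions, Lyl1 23 in 12, Lmo2 5 peaks in 5 regions and 3 lists, and Ldb1 1 peak in 1 region and 1 list. The number of lists ranged over all alternatives from 9 to 12 at Tal1 and from 9 to 13 at Lyl1. Peaks within 2 kb of the TSS, 21 in all, were 18 within 1 kb and 30 by the nearest annotated start. The share of peaks with the consensus was 32.7% in the central 200 bp.

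No paired analysis was possible because each group had 1 list and no result came from a test. Read depth was not used here, thresholds differed between lists, and a missing peak does not show that a factor was not bound. Most peaks came from 2 lists of MAC. Position does not assign a peak to a gene, and the windows of Tal1 and Lyl1 hold other genes.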

Other observations

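Paralogues of the members were examined with the same 40 kb flank. The 5 genes had peaks of a median of 3 lists, equal to that of all coding genes, with a range of 1 to 5. Lmo1, a LIM-only gene close to Lmo2, had peaks of 5 lists, which included 1 peak each of HP GATA1, HP GATA2 and HP GFI1B. Tal2, a bHLH gene close to Tal1, had 4 lists, with 1 peak each of HP C/EBPβ and HP GFI1B. Lmo4 and Ldb2 had 3 lists each, and Ldb2 was the only paralogue with an HB GATA2 peak. Lmo3 had 1 peak of MAC PU.1 alone. None of the 5 had a peak of HP PU.1, beside 49.0% of coding genes, which was not tested in so few genes. None had a peak of HP RUNX1 (11.0% of coding genes), MES C/EBPβ (9.27%), MES ELK4 (6.79%), HB C/EBPβ (5.98%), HE C/EBPβ (1.03%) or MAC RUNX1 (0.707%). For these lists 0 of 5 is near the background.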
